A study of Mus musculus with 2 samples.

Results

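The 10 genes described here encode isoforms of enzymes of glycolysis: the hexokinases *Hk1* and *Hk2*, the phosphofructokinases *Pfkl*, *Pfkm*, and *Pfkp*, the aldolases *Aldoa* and *Aldoc*, the pyruvate kinase *Pkm*, and the enolases *Eno1* and *Eno2*. They were taken from a list by gene symbol, not by level, and are 10 of the 32285 genes in the files. All 10 were found, and all 10 had at least 20 UMIs over both libraries, as did 15888 genes in all. The question was which isoform each retinal cell type used, and how these levels stood in the mutant library beside the WT library.

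Retinas of male C57BL/6J mice aged 7 months were analyzed by droplet-based 3′ scRNA-Seq, with 1 library of the genotype WT (replicate 1) and 1 of the genotype ND6 (replicate 1). ND6 mice carry, in all mtDNA copies of the whole body, a missense mutation in the gene of the complex I subunit ND6, and the label ND6 names no other change. The retina was separated from the rest of the eye and dissociated with enzyme before droplet capture. The mutation is a single base and cannot be read from these counts, so the genotype labels were not checked. With 1 library per genotype there is no replicate spread and no test, and every interval below covers counting error only, at 95%.

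Glycolysis turns glucose into pyruvate in the cytosol. Hexokinases trap glucose as glucose 6-phosphate, phosphofructokinases carry out the committed step, aldolases split the sugar, enolases make phosphoenolpyruvate, and pyruvate kinase yields pyruvate and ATP. Photoreceptors of the mammalian retina are known for strong aerobic glycolysis, in which much of the pyruvate leaves as lactate, and *Hk2* is known as their inducible hexokinase, while *Hk1* is the hexokinase of most neurons. *Aldoc* is a classic marker of astroglia and of some neurons, and *Eno2*, the neuron-specific enolase, is a classic marker of neurons.

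In GRCm38 (mm10), *Hk1* (ENSMUSG00000037012) lies on chromosome 10 from 62268855 to 62379908, minus strand. *Hk2* (ENSMUSG00000000628) lies on chromosome 6 from 82725025 to 82774454, minus strand. *Eno2* (ENSMUSG00000004267) is on the same chromosome from 124760053 to 124769673, minus strand, and *Eno1* (ENSMUSG00000063524) is on chromosome 4 from 150236721 to 150248879, plus strand. The 3′ end of *Pfkp* (chromosome 13, 6579768 to 6648777, minus strand) overlaps *Pitrm1* on the opposite strand, and no other member shares the last 500 bases of its gene with another annotated gene. A second entry with the symbol *Aldoa* (ENSMUSG00000114515), upstream of the gene, held 5 WT and 1 ND6 UMIs in cells and was kept apart from *Aldoa* (ENSMUSG00000030695). The 3′ reads do not resolve the splice forms of *Pkm*.

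To show the DNA before the start sites of the hexokinase and enolase pairs, 2 steps at which the isoforms differed across classes, the 250 bases upstream of the most upstream start (RefSeq, GRCm38.p6) are printed 5′ to 3′ in gene direction. Capitals mark ACGTG on either strand, the core of the hypoxia response element. These windows are chr10:62379909-62380158 for *Hk1*, chr6:82774455-82774704 for *Hk2*, chr4:150236458-150236707 for *Eno1*, and chr6:124769674-124769923 for *Eno2*.
Hk1: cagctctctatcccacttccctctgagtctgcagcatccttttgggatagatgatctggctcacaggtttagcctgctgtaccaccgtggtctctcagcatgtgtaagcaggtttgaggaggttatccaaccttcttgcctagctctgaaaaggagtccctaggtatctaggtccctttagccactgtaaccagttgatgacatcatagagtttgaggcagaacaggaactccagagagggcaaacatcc
Hk2: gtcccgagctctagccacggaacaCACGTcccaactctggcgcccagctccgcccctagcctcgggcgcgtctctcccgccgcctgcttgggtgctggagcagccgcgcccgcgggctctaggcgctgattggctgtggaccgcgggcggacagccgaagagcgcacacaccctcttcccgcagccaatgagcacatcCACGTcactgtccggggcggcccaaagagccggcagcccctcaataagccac
Eno1: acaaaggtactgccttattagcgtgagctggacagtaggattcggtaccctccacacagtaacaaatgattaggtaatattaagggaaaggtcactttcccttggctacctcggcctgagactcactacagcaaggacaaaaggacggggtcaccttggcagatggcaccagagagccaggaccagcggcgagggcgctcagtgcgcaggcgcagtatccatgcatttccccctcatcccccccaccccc
Eno2: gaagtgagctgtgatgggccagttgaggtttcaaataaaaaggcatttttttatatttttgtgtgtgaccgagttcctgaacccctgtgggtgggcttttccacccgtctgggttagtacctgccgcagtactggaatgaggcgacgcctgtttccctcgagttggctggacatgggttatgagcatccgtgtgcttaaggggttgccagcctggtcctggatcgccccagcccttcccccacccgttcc
The *Hk2* window held 2 matches to ACGTG, both read on the opposite strand, and the *Hk1*, *Eno1*, and *Eno2* windows held 0. The 10 members have 20 such windows in all, since several have more than 1 start. ACGTG also occurred in both downstream *Aldoa* windows, which overlap, in the first and second *Pfkm* windows, and in the second *Pkm* window, and 16.7% of all 32536 windows of this length hold it. TAATCC on either strand, the core bound by the photoreceptor factors *Crx* and *Otx2*, was found 219 bases before the *Pfkp* start, 238 bases before the first *Aldoc* start, and 75 bases before the last *Pfkm* start, and in 6.25% of all windows. A match is a description of letters and not a site.

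A barcode counted as a cell when it held more than 400 UMIs and more than 200 genes and when mtDNA-encoded genes gave no more than 20% of its UMIs, which left 12529 WT and 18395 ND6 cells with 54524401 and 62949610 UMIs. The mtDNA limit removed 10647 WT and 3861 ND6 barcodes, and 59 barcodes occurred in both libraries. Clusters were named only from marker lists: rod-like (10083 WT and 13742 ND6 cells), cone-like (664 and 1159), bipolar-like (248 and 655), RPE-like (339 and 966), amacrine-like (81 and 307), and Müller-like (37 and 88). Levels are CPM, the UMIs of a gene relative to all UMIs summed over a class. A 3′ UMI counts a transcript once, so no scaling by gene length was made.

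The markers of these classes carried limits that touch every value below. Free RNA, read in barcodes with 10 to 100 UMIs, was rich in rod transcripts, and 10 rod markers over their free RNA level gave its share as 58.2% of WT and 56.5% of ND6 UMIs in bipolar-like cells, 34.1% and 44.8% in amacrine-like cells, 81.0% and 70.5% in Müller-like cells, and 53.1% and 70.7% in RPE-like cells. The 10 markers did not give 1 ratio, and in the WT Müller-like cells they ran from 53.1% to 134%. Among cone-like cells, 1 cluster with a median of 25261 UMIs per cell held the cone markers at 4216 WT and 5537 ND6 CPM and the rod markers at 73092 and 77978 CPM, beside 85609 and 90799 CPM in rod-like cells. An RPE-like cluster led by *Enpp2* held the rod markers at 84095 and 82550.4 CPM, and a bipolar-like cluster led by *Cabp5* and *Ptprz1* at 54952 and 52073 CPM. A WT RPE-like cluster led by *Cox8b* held them at 6049 CPM. The free RNA shares count all rod marker UMIs of a class as free RNA, whatever their source, and average over such unlike clusters. The levels that free RNA would give, stated below, rest on these class averages and need not hold for a single cluster. The Müller-like class depended on how cells were assigned. At resolution 2 it held 758 WT and 923 ND6 cells, with 720 and 834 of them in a cluster led by *Spc25*, *Glul*, and *Vim*. Under a gate that assigned each cell by its own markers it held 152 and 471. Müller-like values below are those of the 37 and 88 cells named first. The amacrine-like class also held the ganglion cell markers, at 1804 WT and 784 ND6 CPM. Values are therefore also given by cluster, a division chosen after the clusters had been seen.

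Rod-like cells expressed all 10 members, and the sum of the 10 was 5789 WT and 7417 ND6 CPM. *Aldoa* and *Pkm* were the members of highest level, with 1696 and 1826 CPM in WT, and *Pfkm* was the lowest, with 4.56 CPM. Over the 6 classes of the WT library the sum ran from 4617 CPM in RPE-like cells to 6952 CPM in amacrine-like cells, and in the ND6 library from 5120.1 CPM in RPE-like cells to 7417 CPM in rod-like cells. The classes thus differed less in the sum than in single members: between the highest and the lowest class the level differed 1.73-fold for *Pkm* and 24.5-fold for *Pfkm* in WT.

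**Figure D1:**
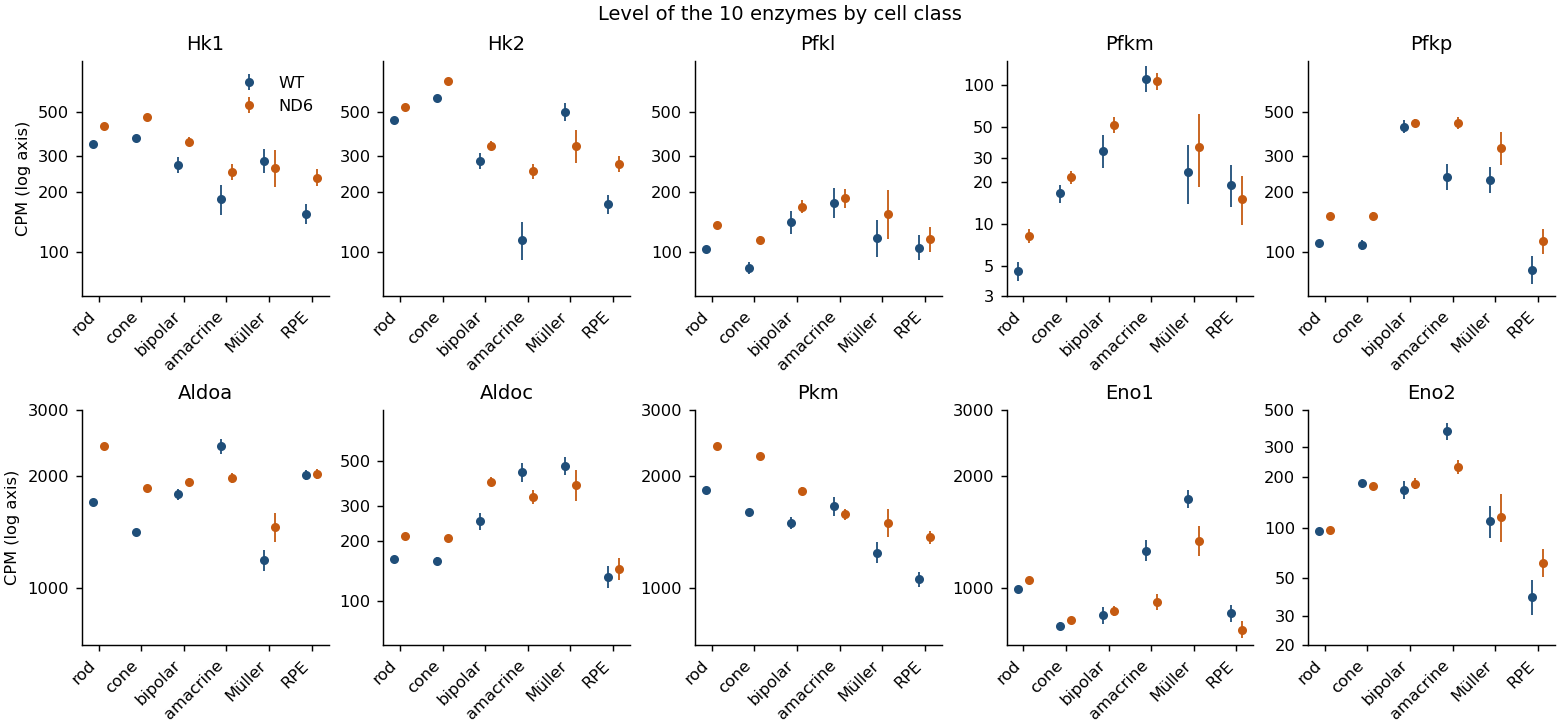
Level of each of the 10 enzymes (CPM, log axis) in the 6 cell classes (rod-like to RPE-like) of the WT (blue) and ND6 (orange) libraries, with exact Poisson 95% intervals for counting error. *Pfkm* and *Eno2* were highest in amacrine-like cells of both libraries, at 112 and 376 CPM in WT, and *Hk2* was highest in cone-like cells, at 588 CPM.

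*Hk2* was highest in cone-like cells, and its lowest class was amacrine-like or RPE-like, depending on 1 RPE-like cluster. *Hk2*, which binds mitochondria and is induced in glycolytic cells, was at 457 (449.5 to 464) WT and 528 (519.8 to 535) ND6 CPM in rod-like cells and at 588 (574 to 603) and 715 (702 to 729) CPM in cone-like cells. *Hk2* in amacrine-like cells was at 114 (91.4 to 141) WT and 253 (230.5 to 276) ND6 CPM, the lowest of the 6 classes as named, although in ND6 its interval overlapped that of RPE-like cells. Without the RPE-like cluster led by *Enpp2*, which held rod markers as rod-like cells did, *Hk2* in RPE-like cells was 83.4 WT and 139 ND6 CPM, below the amacrine-like level in both libraries. In amacrine-like cells free RNA alone would give 110.2 and 154 CPM, so the interval of the WT level holds this background and that of the ND6 level lies above it.

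*Hk2* made up 57.0% (56.4 to 57.6) of WT and 55.4% (54.8 to 55.9) of ND6 hexokinase UMIs in rod-like cells, and 61.3% (60.4 to 62.3) and 60.2% (59.5 to 61.0) in cone-like cells. Of the 12 pairs of class and library, 10 had more UMIs of *Hk2* than of *Hk1*, the exceptions being WT amacrine-like and ND6 bipolar-like cells, and in ND6 amacrine-like cells the share was 50.2% (46.9 to 53.4). This count fell to 6 when the cells with the highest 10% of doublet scores were left out and to 6 when each cell was thinned to 400 UMIs. The free RNA itself held 61.3% (52.0 to 70.1) WT and 52.8% (46.4 to 59.0) ND6 *Hk2*, close to the share in rod-like cells.

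Within bipolar-like cells the division followed the rod markers. In the 5 clusters other than that led by *Cabp5* and *Ptprz1*, *Hk2* was 34.8% (29.2 to 40.7) of WT and 32.6% (29.2 to 36.1) of ND6 hexokinase UMIs, with rod markers at 16064 and 14771 CPM. In the cluster led by *Cabp5* and *Ptprz1* it was 58.0% (54.2 to 61.8) and 54.5% (52.4 to 56.7). The intervals of the 2 sets did not overlap in either library, so the bipolar-like total of 51.2% WT and 48.8% ND6 was an average of clusters with more *Hk1* and 1 cluster with more *Hk2*.

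The same order held in amacrine-like cells. Their cluster led by *Snhg11* had 33.6% (25.7 to 42.1) *Hk2* in WT, with rod markers at 16228 CPM, and 52.8% (49.4 to 56.2) in ND6, with rod markers at 30351 CPM. The cluster led by *Tfap2b* had 46.4% (35.5 to 57.6) in WT and 22.0% (13.6 to 32.5) in ND6, with rod markers at 28513 and 12925 CPM. In each cluster the library with more rod markers had the higher *Hk2* share, and the libraries were ordered oppositely in the 2 clusters. Over the 23 points of cluster and library of bipolar-like, amacrine-like, Müller-like, and RPE-like cells with at least 50000 UMIs, Pearson's r between a member's CPM and the rod marker CPM was 0.91 for *Hk2* and 0.66 for *Hk1*. It was between -0.52 (*Pfkm*) and 0.42 (*Pkm*) for the other 8 members. These points share 2 libraries, their depth, and their free RNA, and the values are a description.

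**Figure D2:**
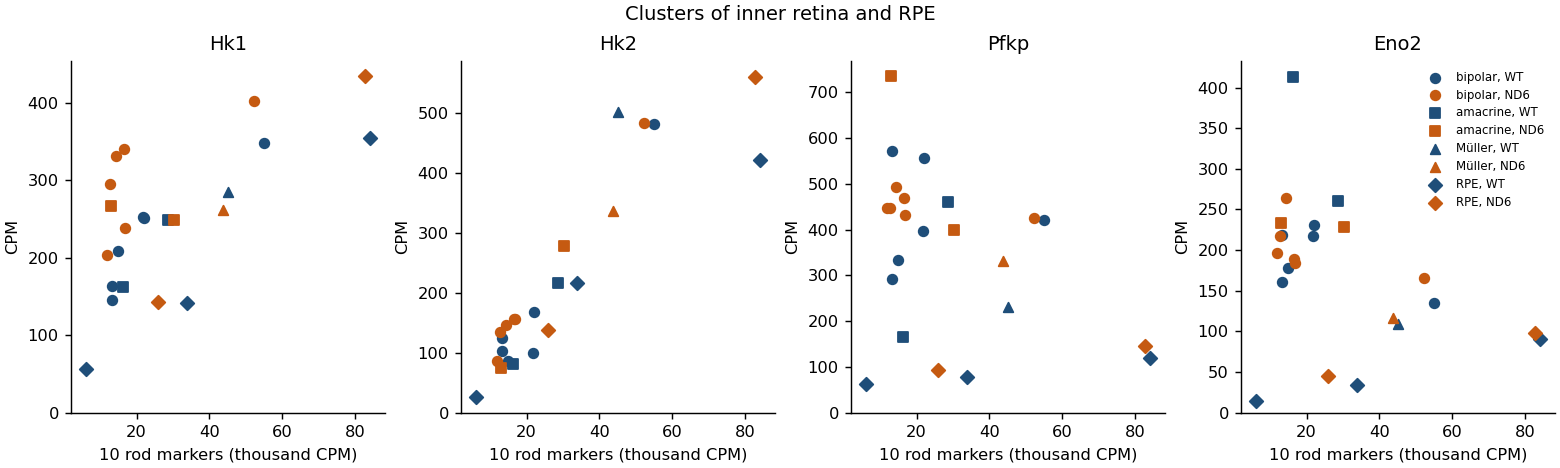
Level of *Hk1*, *Hk2*, *Pfkp*, and *Eno2* (CPM) against the summed level of 10 rod markers (in units of 1000 CPM) in 23 points of cluster and library of bipolar-like, amacrine-like, Müller-like, and RPE-like cells, WT in blue and ND6 in orange. *Hk2* ran from 25.7 to 559.7 CPM as the rod markers rose, while over the 23 points *Pfkp* and *Eno2* showed no such rise (Pearson's r -0.376 and -0.385).

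Müller-like cells had 501 (452 to 554) WT and 337 (277 to 405) ND6 CPM of *Hk2*, above the 261 and 243 CPM that free RNA would give. That background is loosely set, since the rod markers gave shares of 53.1% to 134% in WT and 51.7% to 88.3% in ND6. The rod markers there were at 44962 WT and 43569 ND6 CPM and the cone markers at 2907 and 1335 CPM. The cluster led by *Cabp5* and *Ptprz1*, with rod markers at 54952 and 52073 CPM, had 481 and 483 CPM of *Hk2*. The part of photoreceptor RNA in the Müller-like level was not tested. *Hk1*, the constitutive hexokinase, was highest in cone-like cells (371 WT and 472 ND6 CPM) as the classes were named, but 293 and 385 CPM in the 2 cone-like clusters other than that of highest UMIs, below the 345 and 425 CPM of rod-like cells. It was lowest in RPE-like cells (155 and 235 CPM). In both libraries its amacrine-like and RPE-like intervals overlapped, and so did those of Müller-like and a neighboring class, bipolar-like in WT and amacrine-like in ND6. In RPE-like cells the 2 hexokinases differed by cluster: in the WT cluster led by *Cox8b*, which had the lowest rod markers (6049 CPM), *Hk2* was 25.7 CPM and *Hk1* 56.7 CPM, against 421 and 355 CPM in the cluster led by *Enpp2*.

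Bipolar-like cells used mostly *Pfkp*. *Pfkp*, the platelet-type isoform that is common in brain, was at 423 (392 to 455) WT and 439 (419 to 460.2) ND6 CPM in bipolar-like cells, against 110.3 (107 to 114) and 150.4 (146 to 155) CPM in rod-like cells. It made up 70.8% (67.9 to 73.6) and 66.6% (64.8 to 68.4) of phosphofructokinase UMIs in bipolar-like cells, the highest share of the 6 classes in both libraries. The share in Müller-like cells was 62.1% (56.1 to 67.7) WT and 63.4% (55.8 to 70.6) ND6, and the ND6 interval overlapped that of bipolar-like cells. In amacrine-like cells it was 45.1% (40.1 to 50.2) and 60.2% (57.5 to 62.8). By level, ND6 amacrine-like cells had 442 CPM of *Pfkp*, with an interval that overlapped that of bipolar-like cells. In the 6 bipolar-like clusters of both libraries the share ran from 57.1 to 75.1%. The level in these cells was above the 54.0 WT and 115 ND6 CPM that free RNA would give.

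In rod-like cells *Pfkp* and *Pfkl*, the liver-type isoform, were nearly even: *Pfkp* had 50.5% (49.3 to 51.6) of WT and 51.1% (50.1 to 52.1) of ND6 phosphofructokinase UMIs, and *Pfkl* 47.4% (46.3 to 48.6) and 46.2% (45.2 to 47.1). Which of the 2 was ahead in WT rod-like cells turned when cells were weighted equally, thinned, or clustered at resolution 2. RPE-like cells had *Pfkl* at 105 WT and 116 ND6 CPM and *Pfkp* at 81.4 and 113 CPM, the lowest *Pfkp* level of the 6 classes. By level, *Pfkl* was the most even member of the 3, and in the ND6 library the intervals of each pair of neighboring classes overlapped.

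*Pfkm*, the muscle-type isoform, was the most unequal of the 10. Its level was 112 (89.0 to 138) WT and 107 (92.7 to 123) ND6 CPM in amacrine-like cells and 4.56 (3.88 to 5.33) and 8.15 (7.22 to 9.17) CPM in rod-like cells, and the classes between them ran from 15.0 to 51.8 CPM. Bipolar-like, Müller-like, cone-like, and RPE-like cells could not be ordered by neighboring intervals in WT. Free RNA would give 3.02 WT and 10.4 ND6 CPM in amacrine-like cells, so the level there was far above it in both libraries. Both amacrine-like clusters had it, at 105 WT and 103 ND6 CPM and at 133 and 134 CPM.

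*Pfkm* also set cone-like apart from rod-like cells. In the 2 cone-like clusters other than that of highest UMIs, where the rod markers were at 48681 WT and 50913 ND6 CPM, *Pfkm* held 14.3% (11.9 to 17.1) of WT and 16.6% (14.2 to 19.2) of ND6 phosphofructokinase UMIs. In rod-like cells it held 2.09% (1.78 to 2.44) and 2.77% (2.46 to 3.11), and in the cone-like cluster of highest UMIs 4.88% (3.85 to 6.09) and 5.21% (4.50 to 5.99). The 3 ranges were apart in both libraries. The set of 2 clusters was itself uneven: that led by *Gngt2* held the rod markers at 88445 WT and 67557 ND6 CPM, with 8 of 38 and 20 of 93 phosphofructokinase UMIs from *Pfkm*, and that led by *Opn1sw* at 46467 and 49036 CPM, with *Pfkm* shares of 14.0% and 16%.

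Aldolase UMIs came mostly from *Aldoa* in every class. *Aldoa*, the muscle-type aldolase, ran from 1185 CPM in Müller-like cells to 2403 CPM in amacrine-like cells in WT, and from 1457 to 2410.0 CPM (rod-like cells) in ND6. *Aldoc*, the brain-type aldolase, was highest in WT in Müller-like cells, at 473 (426 to 525) CPM, and amacrine-like cells, at 441 (395 to 492) CPM, whose intervals overlapped. In ND6 it was at 395 CPM in bipolar-like, 378 in Müller-like, and 332 in amacrine-like cells, each overlapping its neighbor.

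The *Aldoc* share of aldolase UMIs was 28.5% (26.1 to 31.1) in WT and 20.6% (17.5 to 24.0) in ND6 Müller-like cells, the highest of the 6 classes in both libraries, and 8.72% (8.50 to 8.94) and 8.10% (7.92 to 8.28) in rod-like cells. In ND6 the Müller-like interval overlapped that of bipolar-like cells, at 17.0% (16.3 to 17.8). In the 5 bipolar-like clusters other than that led by *Cabp5* and *Ptprz1* the ND6 share was 20.4% (19.1 to 21.6). Free RNA would give 1376 WT and 1446 ND6 CPM of *Aldoa* in Müller-like cells, and 139.7 and 254 CPM of *Aldoc*. The *Aldoa* level was thus below what free RNA would give in WT and within counting error of it in ND6, and the *Aldoc* level was above it in both. With free RNA subtracted, no *Aldoa* was left in WT Müller-like cells, so no ratio of the 2 aldolases can be given there. This is the smallest of the 6 classes, and the one in which the 10 rod markers gave the widest range for free RNA. An unnamed cluster of 733 WT and 1307 ND6 cells led by *Nefl*, *Bc1*, and *Glul* had *Aldoc* shares of 11.8% and 14.1%, between the Müller-like and rod-like values.

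Among bipolar-like clusters the *Aldoc* share ran widely. It was lowest in the cluster led by *Trpm1* and *Pcp2*, both bipolar markers, at 3.69% WT and 11.8% ND6, and highest in a cluster led by *Cabp5* and *Pcp2*, at 21.6% and 28.1%. Both libraries gave this lowest and this highest cluster. In the *Trpm1*- and *Pcp2*-led cluster the *Aldoc* level was 67.9 WT CPM and 209 ND6 CPM.

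*Pkm*, which makes pyruvate, was highest in rod-like cells, at 1826 (1812 to 1840.2) WT and 2399 (2382 to 2415) ND6 CPM, and lowest in RPE-like cells, at 1053 (1007 to 1101) and 1365 (1310.4 to 1421) CPM. In the WT RPE-like cluster led by *Cox8b* it was 576 CPM, and in that led by *Enpp2* 1968 CPM. Of the 6 classes the WT amacrine-like and cone-like intervals overlapped, and in ND6 those of amacrine-like, Müller-like, and RPE-like cells followed each other without a gap.

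*Eno2* had its highest levels in amacrine-like, cone-like, and bipolar-like cells. *Eno2* was at 376 (333 to 422) WT and 229 (208 to 251) ND6 CPM in amacrine-like cells, at 184 (176 to 192) and 176 (169.6 to 183) CPM in cone-like cells, and at 38.8 (30.3 to 48.9) and 61.9 (50.7 to 74.8) CPM in RPE-like cells. Its share of enolase UMIs was 23.0% (20.7 to 25.5) and 20% (18.3 to 21.7) in amacrine-like, 18.9% (18.1 to 19.6) and 17.7% (17.1 to 18.3) in cone-like, 16.6% (14.9 to 18.5) and 17.4% (16.3 to 18.6) in bipolar-like, 8.77% (8.49 to 9.06) and 8.48% (8.21 to 8.76) in rod-like, 5.94% (4.76 to 7.31) and 8.01% (5.76 to 10.8) in Müller-like, and 4.35% (3.41 to 5.46) and 7.43% (6.12 to 8.90) in RPE-like cells. The 3 highest shares of the 6 classes were those of amacrine-like, cone-like, and bipolar-like cells in both libraries. Free RNA itself had an *Eno2* share of 14.2% (9.94 to 19.5) in WT and 23.1% (18.7 to 28.1) in ND6. In ND6 no class was thus above free RNA, although the amacrine-like interval overlapped it. Free RNA would give 75.1 WT and 136 ND6 CPM of *Eno2* in RPE-like cells, above the measured level, and 115 and 136 CPM in Müller-like cells, within counting error of it.

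*Eno1*, the enolase of most tissues, was highest in Müller-like cells as the classes were named, at 1729 (1637 to 1826) WT and 1335 (1214 to 1464) ND6 CPM. Free RNA would give 691 and 451 CPM there. Of the 10 members, *Eno1* and *Aldoc* had their highest WT level in Müller-like cells, and *Aldoa* had its lowest there in both libraries.

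**Figure D3:**
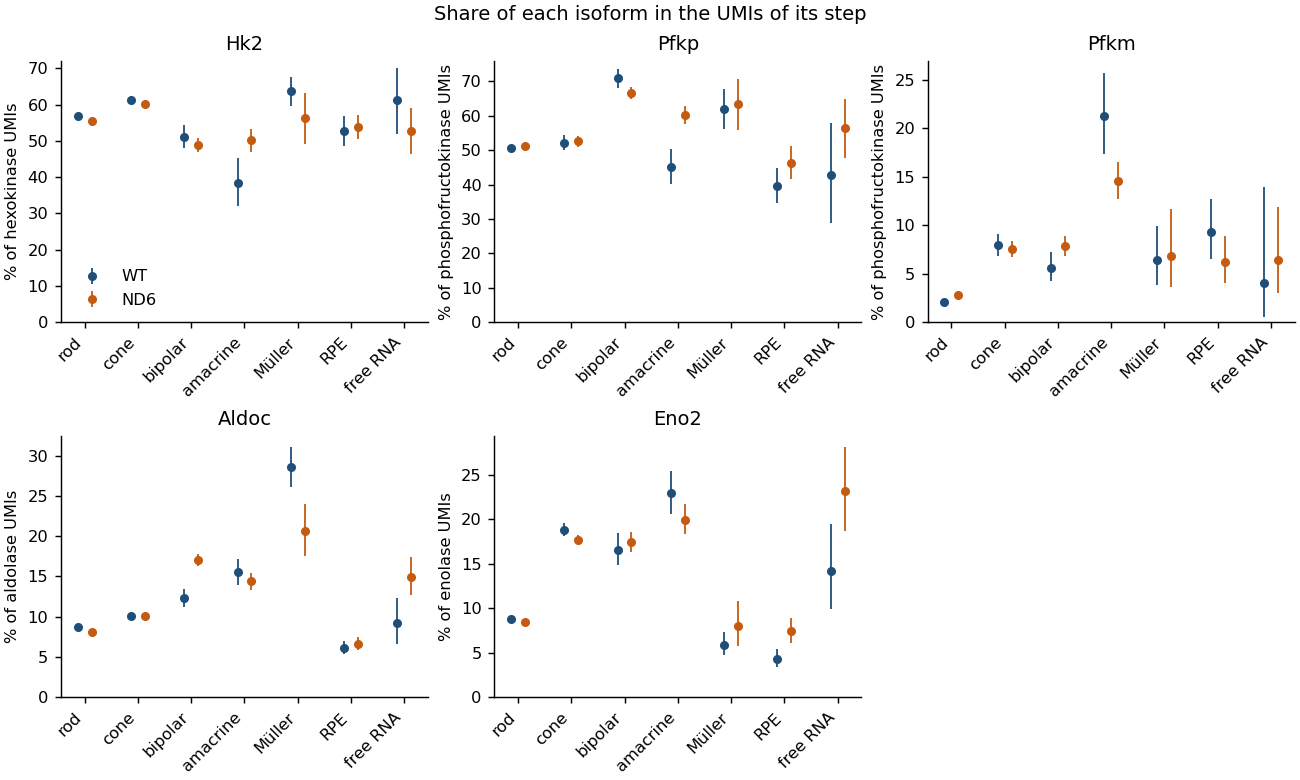
Share of *Hk2*, *Pfkp*, *Pfkm*, *Aldoc*, and *Eno2* in the UMIs of their step (%) in the 6 cell classes and in free RNA, WT in blue and ND6 in orange, with exact Clopper-Pearson 95% intervals for counting error. Amacrine-like cells had the highest *Pfkm* share, 21.3% WT and 14.6% ND6, and Müller-like cells the highest *Aldoc* share, which in ND6 overlapped that of bipolar-like cells.

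Isoform use also varied among the 7 rod-like clusters. They fell along the level of *Malat1*, a long noncoding RNA kept in the nucleus. In 4 clusters with 1697 WT and 3138 ND6 CPM of *Malat1*, *Hk2* was 38.9% (37.6 to 40.1) of WT and 45.8% (44.9 to 46.7) of ND6 hexokinase UMIs. In 2 clusters led by *March1* and by *Rp1*, with 48487 and 48744 CPM of *Malat1*, it was 62.8% (62.0 to 63.5) and 62.0% (61.2 to 62.8). The remaining cluster, with 33124 and 24266 CPM of *Malat1*, had 59.1% (57.7 to 60.4) and 56.7% (55.5 to 57.8). Rod-like cells therefore had more *Hk1* than *Hk2* in the *Malat1*-poor clusters and more *Hk2* than *Hk1* in the *Malat1*-rich ones, in both libraries.

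The *Hk2* level differed more between these sets than the *Hk1* level. *Hk2* was at 226 WT CPM in the *Malat1*-poor and 578 CPM in the *Malat1*-rich clusters, while *Hk1* was at 355 and 343 CPM. *Eno2* was higher in the *Malat1*-rich sets, going from 45.2 to 127 CPM in WT and from 66.7 to 134 CPM in ND6. *Aldoa* went the other way, from 2226 to 1394 CPM in WT and from 2871 to 1915 CPM in ND6. The share of mtDNA-encoded UMIs was 13.4% WT and 10.1% ND6 in the *Malat1*-poor and 6.07% and 5.06% in the *Malat1*-rich clusters, and the rod markers were at 108469 and 104738 against 72622 and 75234 CPM. The part of either in these shares was not tested.

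**Figure D4:**
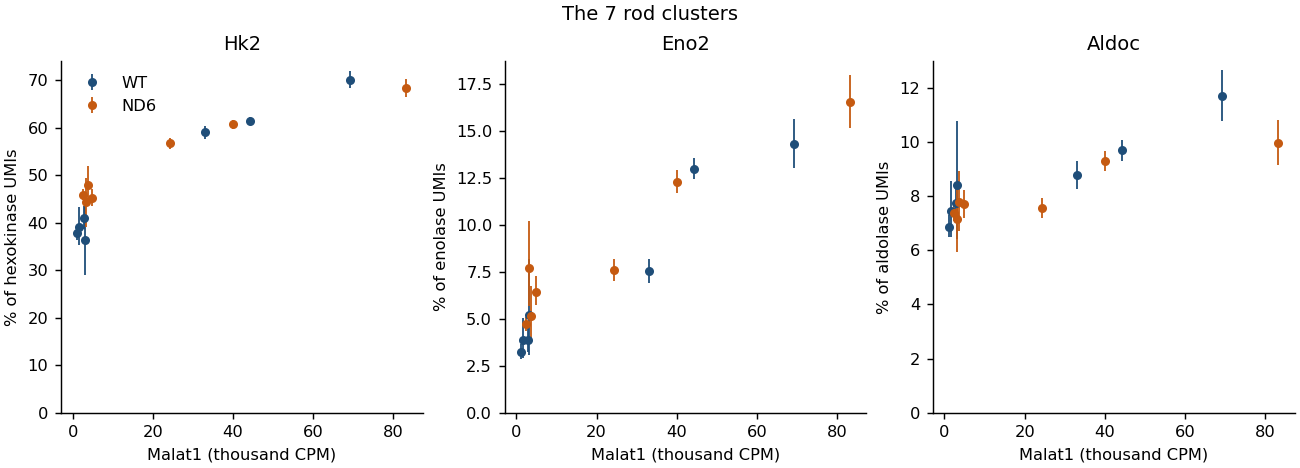
Share of *Hk2*, *Eno2*, and *Aldoc* in the UMIs of their step (%) against the level of *Malat1* (in units of 1000 CPM) in the 7 rod-like clusters of each library, WT in blue and ND6 in orange, with exact Clopper-Pearson 95% intervals for counting error. The *Hk2* share ran from 36.3% to 70.1% in WT and from 44.2% to 68.3% in ND6 clusters.

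The mutant library held more of these transcripts. Over all cells, 10 of 10 members were higher in ND6 than in WT, with log2 ratios from 0.02 (*Eno1*) to 0.84 (*Pfkm*) and a median of 0.39, where the median of all 15888 genes was 0.07. Only *Pfkm* passed a 1.5-fold difference, at 10.3 (9.42 to 11.1) WT and 18.4 (17.4 to 19.5) ND6 CPM, and 1 of 10 members stands beside 18.5% of all genes at least 1.5-fold higher. No member was at least 1.5-fold lower, beside 6.94% of all genes. The members thus shared a direction, and the share of them past 1.5-fold was no higher than that of all genes.

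In rod-like cells, 10 of 10 members were higher in ND6, with a median log2 ratio of 0.39 where that of all genes was 0.02. *Pfkm* was at 0.84 (0.55 to 1.13), *Aldoa* at 0.51 (0.49 to 0.52), *Pfkp* at 0.45 (0.39 to 0.51), and *Pkm* at 0.39 (0.38 to 0.41), and *Eno1* and *Eno2* were the lowest, at 0.09 (0.06 to 0.11) and 0.03 (-0.04 to 0.10). In these cells 1 of 10 members was at least 1.5-fold higher, beside 16.7% of genes, and 0 were as much lower, beside 5.57%. That member, *Pfkm*, was at only 4.56 WT and 8.15 ND6 CPM. Free RNA held 2 *Pfkm* UMIs of 226145 in WT and 9 of 389287 in ND6. Rod-like cells also held more Müller markers in ND6 (166 WT and 297 ND6 CPM), cone markers (221 and 381), and amacrine markers (28.2 and 45.5). RPE markers were lower, at 99.5 and 78.2 CPM. The part of such RNA in the *Pfkm* ratio was not tested. Within the 7 rod-like clusters, *Aldoa* was higher in ND6 in 7 of 7 (log2 ratios 0.32 to 0.52), as were *Pkm* (0.15 to 0.49), *Hk1* (0.13 to 0.41), and *Hk2* (0.09 to 0.82), and *Eno1* in 4 of 7 (-0.16 to 0.10). *Eno2* was higher in 7 of 7 as well (0.01 to 0.89), and in the 4 *Malat1*-poor clusters its ratio was 0.56 (0.40 to 0.73), above that of the class. The share of UMIs that mtDNA-encoded genes took was 8.88% in WT and 7.45% in ND6 rod-like cells, and its part in the ratios was not tested.

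Cone-like cells gave nearly the same picture, with 9 of 10 members higher and a median of 0.39 beside -0.01 for all genes. *Pkm* was at 0.51 (0.48 to 0.53), *Pfkp* at 0.48 (0.37 to 0.58), and *Pfkl* at 0.47 (0.35 to 0.59), and *Eno2*, the 1 lower member, at -0.06 (-0.14 to 0.02). No member passed 1.5-fold in either direction, beside 10.1% of genes higher and 5.59% lower. Without the cluster of highest UMIs, which gave 6889782 of 10736772 WT and 11511192 of 15301885 ND6 UMIs, the median was 0.29 and *Eno2* was at -0.18 (-0.32 to -0.04).

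In bipolar-like cells, 10 of 10 members were higher, with a median of 0.26 beside 0.07. *Aldoc*, at 0.66 (0.50 to 0.82), and *Pfkm*, at 0.62 (0.19 to 1.07), passed 1.5-fold, beside 13.9% of genes that did, and 0 members were as much lower, beside 4.88%. Both calls ended with free RNA subtracted, at 0.42 for *Aldoc* and 0.49 for *Pfkm*, and free RNA would give 100.3 WT and 203 ND6 CPM of *Aldoc*. That of *Aldoc* also ended with cells thinned to 400 UMIs, at 0.39, and that of *Pfkm* under a gate that assigned each cell by its own markers, at 0.53, and with median of ratios scaling, at 0.57. In the 5 clusters with the fewest rod markers *Aldoc* was at 0.89 (0.67 to 1.10), and in the cluster led by *Cabp5* and *Ptprz1* at 0.48 (0.25 to 0.71). *Pfkp*, the main phosphofructokinase of these cells, was at 0.06 (-0.07 to 0.18), and the interval holds 0.

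Amacrine-like cells had 4 of 10 members higher and 6 lower, with a median of -0.07 beside 0.04 for all genes. *Hk2*, at 1.14 (0.81 to 1.49), and *Pfkp*, at 0.90 (0.66 to 1.14), were at least 1.5-fold higher, beside 17.6% of genes, and *Eno2*, at -0.71 (-0.94 to -0.49), was at least 1.5-fold lower, beside 10.6%. In the cluster led by *Snhg11* these 3 were at 1.77 (1.33 to 2.24), 1.27 (0.96 to 1.60), and -0.86 (-1.09 to -0.61), and in that led by *Tfap2b* at -1.52 (-2.42 to -0.68), 0.68 (0.29 to 1.07), and -0.15 (-0.74 to 0.44). *Hk2* thus had opposite signs in the 2 clusters, each time with the rod markers as given above, and *Pfkp* the same sign. Under the gate by each cell's own markers, none of the 3 passed 1.5-fold, with *Hk2* at 0.22, *Pfkp* at -0.01, and *Eno2* at -0.13. The class also had another makeup in the 2 libraries: at resolution 2 a cluster of 1 WT and 128 ND6 cells, led by *Meg3* and *Snhg11* and with a median of 1485 UMIs, was left unnamed, the class then held 82 WT and 178 ND6 cells, and *Pfkp* was at 0.30. The *Eno2* call ended with cells weighted equally, at -0.11, and when thinned, at -0.50. Amacrine-like cells also had a median of 7464 UMIs in WT and 3879 in ND6. The ganglion cell markers were higher in the WT cells, and their part in these ratios was not tested.

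In Müller-like cells, 6 of 10 members were higher, with a median of 0.18 beside -0.03. *Pfkm* had 18 WT and 12 ND6 UMIs and was the 1 member at least 1.5-fold higher, beside 13.6% of genes, with a log2 ratio of 0.59 (-0.59 to 1.73) that does not exclude 0, and with cells weighted equally it was -0.69. No member passed 1.5-fold downward, beside 16.2% of genes, although *Hk2* came near, at -0.57 (-0.89 to -0.27). *Eno1* was at -0.37 (-0.53 to -0.22) and *Aldoa* at 0.30 (0.14 to 0.46). Müller-like cells had a median of 10329 UMIs in WT and 1662 in ND6, and *Hk2* was seen in 54.1% and 44.3% of them. These intervals cover counting error only and do not allow for this difference in depth per cell.

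In RPE-like cells, 8 of 10 members were higher, with a median of 0.26 beside 0.00. *Hk1*, at 0.60 (0.38 to 0.83), *Hk2*, at 0.67 (0.46 to 0.88), and *Eno2*, at 0.67 (0.23 to 1.13), were at least 1.5-fold higher, beside 10.2% of genes, and 0 members were as much lower, beside 9.66%. RPE-like cells had a median of 2418 UMIs in WT and 1124.5 in ND6. The class had another makeup in the 2 libraries, since the cluster led by *Cox8b* held 95 WT and 4 ND6 cells. Without it *Hk1*, *Hk2*, and *Eno2* were at -0.11, -0.24, and -0.06, so these 3 ratios turned without that cluster. The calls of *Hk1* and *Hk2* also ended with cells weighted equally, at 0.26 and 0.13, and without the highest 10% of doublet scores, at 0.26 and 0.37, and those of *Hk1* and *Eno2* with free RNA subtracted, at -0.87 and 0.50. In the cluster led by *Rgr* alone, *Hk1* was at 0.01 (-0.43 to 0.47), *Hk2* at -0.64 (-1.02 to -0.25), and *Pkm* at -0.16 (-0.32 to 0.00).

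**Figure D5:**
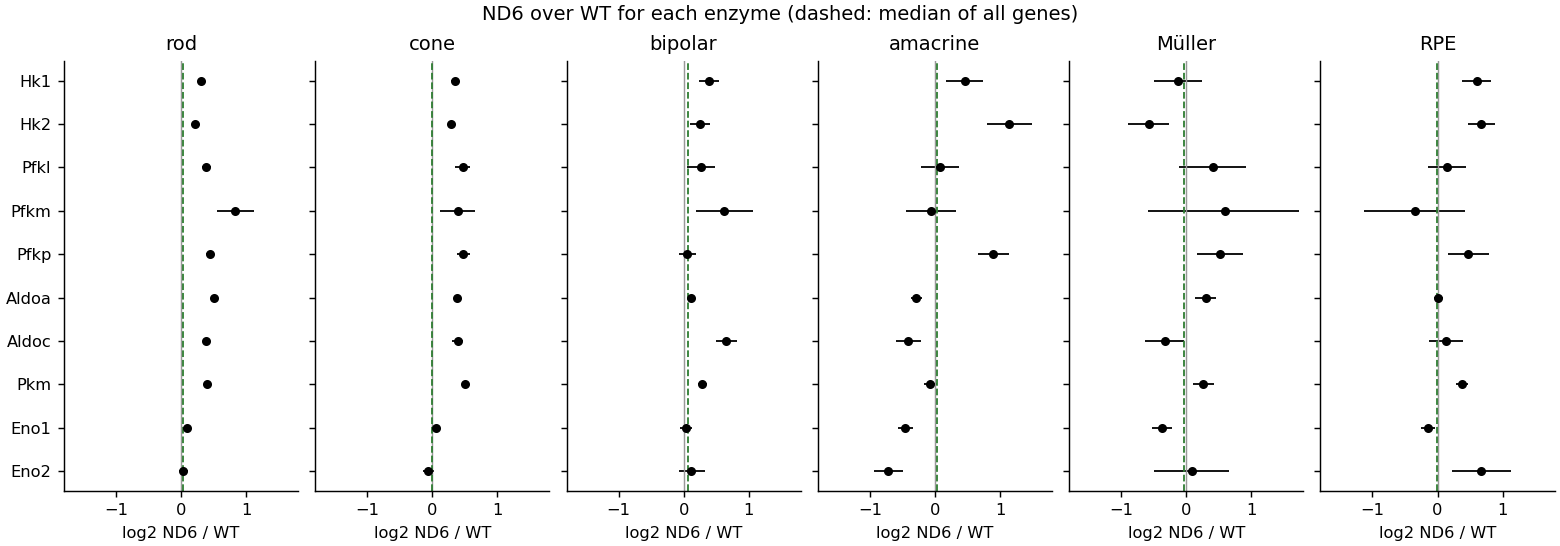
Log2 ratio of ND6 over WT CPM for the 10 enzymes in each of the 6 cell classes, with exact conditional binomial 95% intervals for counting error and the median of all genes as a dashed line. In rod-like cells all 10 points lie above 0, from 0.03 to 0.84, and in amacrine-like cells they run from -0.71 to 1.14.

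*Eno1* has a near-identical copy, *Eno1b*, and reads of either can be counted for the other, so both are uncertain. *Eno1b* took 3.58% of the UMIs of both in WT and 11% in ND6 cells, and over the 6 classes and microglia-like cells its share ran from 3.18% to 4.76% in WT and from 10.5% to 11.5% in ND6. The 2 ranges did not overlap, and free RNA had 3.02% and 14.4%. With the UMIs of both summed, the log2 ratio was 0.14 (0.12 to 0.15) over all cells, where *Eno1* alone was at 0.02 (0.00 to 0.04) and *Eno1b* alone at 1.76 (1.69 to 1.83). How much of *Eno1b* is transcript of that copy cannot be read from these counts.

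The other 5 enzymes of the pathway, *Gpi1*, *Tpi1*, *Gapdh*, *Pgk1*, and *Pgam1*, followed the members over all cells, where 5 of 5 were higher in ND6, with a median of 0.43. Of all genes, 9011 of 15888 were higher, with a median of 0.07. Only *Tpi1*, which interconverts the triose phosphates, passed 1.5-fold, at 232 WT and 374 ND6 CPM and 0.69 (0.66 to 0.72). This 1 of 5 stands beside 18.5% of all genes at least 1.5-fold higher. In amacrine-like cells, 5 of 5 were lower, with a median of -0.53, *Tpi1* at -0.59 (-0.71 to -0.47) and *Pgam1* at -0.58 (-0.70 to -0.47). Of all genes there, 4980 of 10576 were lower, with a median of 0.04. At least 1.5-fold lower was 1 of the 5, beside 10.6% of all genes. Bipolar-like cells had 2 of the 5 enzymes higher and 3 lower, beside 6676 of 11520 genes higher.

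Among further genes of these enzyme families, *Eno1b*, *Eno3*, and *Hkdc1* reached 20 UMIs over both libraries. *Hk3*, a hexokinase of myeloid cells, had 12 WT and 5 ND6 UMIs, of which 9 and 4 were in microglia-like cells. *Pklr* and *Pgam2* had between 1 and 8 UMIs in a library, and *Pgk2* and *Gapdhs*, the isoforms of sperm, had 0 in either, which allows a level of up to 0.0550 CPM in WT and 0.0477 CPM in ND6. Of 8 regulators, 6 reached 20 UMIs, 2 higher and 4 lower in ND6, with a median of -0.07 and 0 past 1.5-fold. Of all 15888 genes, 9011 were higher and 6877 lower, 18.5% at least 1.5-fold higher and 6.94% as much lower. *Pfkfb2*, which makes the activator of phosphofructokinase, was at 100.2 WT and 89.1 ND6 CPM in rod-like cells, and *Tigar*, which degrades it, at 42.7 and 31.2 CPM, with log2 ratios of -0.17 (-0.24 to -0.10) and -0.45 (-0.57 to -0.34).

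Patterns over the classes were compared as log2(CPM + 10) over the 6 classes and microglia-like cells in both libraries, 14 points that share 2 libraries, their depth, and their free RNA. Among genes with at least 500 UMIs, those most like *Hk2* were *Serinc4* (Pearson's r 0.98), *Nxnl1* (0.97), and *Pde6a* (0.97), of which *Nxnl1* and *Pde6a* are photoreceptor genes. Those most like *Hk1* were *Fbxl5* (0.96), *Gm49602* (0.95), and *Gucy2e* (0.95), and those most like *Eno2* were the synaptic vesicle gene *Syt1* (0.98), *Cds2* (0.97), and *Stxbp5l* (0.96). The nearest to *Pfkp* was *Kif1a* (0.97), to *Pfkm* *Fam76a* (0.98), to *Pfkl* *Ptov1* (0.92), to *Aldoa* *Ndufb9* (0.94), to *Aldoc* *Agk* (0.94), to *Pkm* *Pcp4l1* (0.97), and to *Eno1* *Ap4s1* (0.91). Between members the highest r values were 0.86 for *Pfkl* and *Pfkm*, 0.86 for *Pfkp* and *Aldoc*, 0.86 for *Pfkl* and *Pfkp*, and 0.85 for *Hk1* and *Pkm*, and that for *Hk1* and *Hk2* was 0.82. Isoforms of 1 step were least alike for aldolase (0.29) and enolase (0.35).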

How the data were processed

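Single retinal cells of 1 WT and 1 ND6 library were captured in droplets and sequenced from the 3′ end. The deposited values are UMI counts per gene and barcode, which the authors made with Cell Ranger 3.0.2 on mm10 (submitters' processing notes), with every barcode of the list kept and no normalization. From these counts, cells were chosen by more than 400 UMIs, more than 200 genes, and no more than 20% mtDNA-encoded UMIs. Scrublet called 0 cells in either library and so did not work, and doublets were kept. Cells were clustered (Leiden, resolution 1, 30 components of 3000 variable genes scaled within library, 20 neighbours) without the 10 members, the other glycolytic genes, and mtDNA-encoded genes. A cluster of at least 20 cells was named "X-like" when at least 3 markers of 1 class were raised at least 2-fold. Its 10 leading genes also held more markers of that class than of any other, except in the rod-like clusters led by *March1* and by *Rp1*. Those held no rod marker among their leading genes and were named on raised rod markers (4 and 9). Rod markers were compared with the named clusters other than cone-like. This naming rule was settled after the clusters had been seen, and rebuilt classes may differ from those of the study.

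UMIs were summed per class and library and given as CPM, with exact Poisson, Clopper-Pearson, and conditional binomial 95% intervals, which were tested on simulated data. With 1 library per genotype no test was run, and a gene was called higher or lower past 1.5-fold, with 20 UMIs over both libraries as the minimum and 0.5 UMIs added to each. A level of 0 was given the limit that 3 counts allow. The members, gene lists, and marker lists were chosen with earlier results of these data known. All 10 members are named, with the genes most like them by pattern (up to 3 for each) and examples from the other lists. Some genes of these lists are not reported here. Cluster sets were chosen after their values had been seen. Samples were grouped by their genotype labels. Alternatives changed the cell filter, clustering, scaling, weighting, depth, free RNA, and doublets. Software was numpy 2.4.6, scipy 1.17.1, pandas 2.3.3, scanpy 1.11.5, leidenalg 0.10.2, scikit-learn 1.9.0, and matplotlib 3.10.9.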

Additional observations from a re-analysis of the deposited data

Results flagged for a closer look

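*Eno2* had opposite signs in 2 classes. Its log2 ratio of ND6 over WT was 0.67 in RPE-like cells and -0.71 in amacrine-like cells, each with 1 library per genotype, and the difference was not tested. Without the RPE-like cluster led by *Cox8b* the former was -0.06, and under a gate by each cell's own markers the latter was -0.13.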

How the results depend on the processing

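Of 1424 values compared under alternatives, 992 stayed within their counting interval or, for counts of classes, within 1.5 times, 414 moved further, and 18 called values changed sign. A ratio of ND6 over WT was called when past 1.5-fold with an interval that excluded 0, and an isoform ratio when its interval excluded 0. Sign changes of values that were not called, such as medians given below, are not among the 18. The median log2 ratio of the 10 members over all cells went from 0.386 to 0.326 with cells weighted equally, 0.295 with cells thinned to 400 UMIs, and 0.344 with median of ratios scaling. In rod-like cells it went from 0.391 to 0.344 when thinned. In cone-like cells it went from 0.386 to 0.262 with equal weights, 0.30 when thinned, and 0.286 without the cluster of highest UMIs, and in bipolar-like cells from 0.256 to 0.061 when thinned. In Müller-like cells it was -0.150 with equal weights. In RPE-like cells it was -0.029 without the highest 10% of doublet scores, -0.686 with free RNA subtracted, and -0.054 when thinned. The count of classes with more *Hk2* than *Hk1* was 6 of 12 without the highest doublet scores and 6 when thinned, and that with more *Aldoc* than *Aldoa* was 2 with free RNA subtracted.

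Among called single values that changed sign, the *Pfkp* ratio in amacrine-like cells was -0.013 under the marker gate. In RPE-like cells *Hk1* was -0.866 with free RNA subtracted, and *Hk1*, *Hk2*, and *Eno2* were -0.106, -0.235, and -0.058 without the cluster led by *Cox8b*. The log2 ratio of *Hk2* over *Hk1* was -0.040 in WT rod-like cells at resolution 2, and in ND6 RPE-like cells -0.195 with equal weights and -0.138 without the highest doublet scores. That of *Pfkp* over *Pfkl* in WT rod-like cells was -0.169 with equal weights, -0.206 at resolution 2, and -0.113 when thinned. In WT cone-like cells it was -0.059, -0.425 when thinned, and -0.111 without the cluster of highest UMIs, in ND6 cone-like cells -0.065 when thinned, and in WT RPE-like cells 0.175 when thinned. With free RNA subtracted, that of *Aldoc* over *Aldoa* in Müller-like cells came out as 8.387 in WT and 3.396 in ND6, but no *Aldoa* was left in WT and an amount within counting error in ND6, so both values are set by the 1 CPM added and neither measures a ratio nor bounds it. The count of 2 classes above rests on them. The cause was not tested. The alternatives without 1 cluster, and the sum of *Eno1* and *Eno1b*, were chosen after seeing the data.

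No paired analysis was possible because each genotype has 1 library, with 1 replicate number. Leaving out a replicate was not done, since a genotype would have none left. Intervals cover counting error only, and depth limits Müller-like values most.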
